A study of Mus musculus with 11 samples.

Results

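The lysosomal cathepsins and legumain are described here across mouse left ventricle, as 10 genes matched by symbol among the 25006 genes counted in each library. They are Ctsb, Ctsl, Ctss and Ctsk, which encode cysteine endopeptidases, Ctsc, Ctsh and Ctsz, which encode cysteine exopeptidases, Ctsd, which encodes an aspartic protease, Ctsa, which encodes a serine carboxypeptidase, and Lgmn, which encodes legumain. Bulk mRNA sequencing was carried out on 11 hearts, 1 library per mouse, that were either naive or collected 9 days after myocardial infarction (MI) by permanent ligation of the descending coronary artery. By the genotype label, control mice were Vegfc fl/fl (naive M44 and M45, and MI M006, M38 and M40) and myeloid Vegfc-deficient mice were Vegfc fl/fl ; LysMCre (naive M149, M150 and M34, and MI M35, M900 and M913). The label therefore gives floxed Vegfc to all 4 groups and Cre only to the deficient ones, whereas the tissue protocol calls the controls LysMCre mice and the study also mentions C57BL/6 controls. LysMCre is expressed from the Lyz2 locus, which is active in macrophages, monocytes and neutrophils, so Vegfc remains intact in other cardiac cells. MI tissue was taken from the infarct, naive tissue from the matching region, and ages were not given in the sources used here.

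Libraries held between 10824989 and 26782728 counts, and all 10 genes were among the 14779 that passed the filter on low counts. Vegfc ranged from 21.9 to 45.5 CPM (counts scaled to library size by TMM) over all libraries, and whole-tissue Vegfc did not separate the genotypes (log2 fold change -0.27 with a standard error of 0.25 after MI). Lyz2, which the Cre insertion interrupts, went against the label of 1 library. M149, labelled naive Vegfc-deficient, held 4565 CPM of Lyz2, whereas M150 and M34 held 72.5 and 245 CPM and the naive controls 2121 and 2282 CPM. After MI, Lyz2 was 1392, 203 and 12.4 CPM in M35, M900 and M913 and at least 4538 CPM in each control. M149 is called the library labelled Vegfc-deficient below, and each result that rests on it is given with and without it. In addition, Xist reached 188 to 403 CPM in the 6 infarcts but no more than 11.8 CPM in the 5 naive hearts, and Ddx3y showed the opposite order, so that sex and MI cannot be told apart in any comparison of MI with naive hearts. Cardiomyocyte markers were abundant in naive tissue, at 73050 to 102600 CPM summed over 8 genes, and were at 2557 to 25420 CPM after MI.

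Lysosomal cathepsins are made as inactive precursors, are carried to lysosomes and are activated in the acidic lumen, where they degrade proteins delivered by endocytosis, phagocytosis and autophagy. Phagocytes that clear dying cells depend on this machinery, and macrophages are among the cells with the most cathepsin. Legumain cleaves after asparagine and also processes the precursors of several cathepsins. Some members leave the cell and act on matrix, such as cathepsin K, a collagenase. Some act on immune proteins, such as cathepsin S, which trims the MHC class II invariant chain. Cystatins and related inhibitors hold the cysteine cathepsins in check.

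Many lysosomal genes carry a promoter element read by the transcription factors TFEB and TFE3, with the core CACGTG and a longer form TCACGTGA. Both are palindromes, so 1 search covers both strands, and each TCACGTGA contains a CACGTG. RefSeq promoters of GRCm38.p6, each 300 bases long from 250 bases before the transcript start, were at hand for 8 of the 10 genes (all but Ctsb and Ctsh), with a second start for Ctsa and Lgmn. The core was found in Ctsa, Ctsd, Ctsl and Lgmn and not in these windows of Ctsc, Ctsk, Ctss or Ctsz. That is 4 of 8 genes, against 8.09% of all 27025 genes with a promoter. The longer form was found in Ctsa and Ctsd, against 1.12% of all genes. The stretches that hold the core are shown because they are the shared feature of these 4 promoters, with the core in capitals and the remainder in lower case, each read 5′ to 3′ on the strand of the gene. In Ctsa the cores begin at -12 and 5, counting the start base as 0, at the second start (chr2:164833736-164833808, plus strand), which lies 901 bases into the gene from the first. In Ctsd they begin at -245 and -98 (chr7:142387895-142388077, minus strand), in Ctsl at -236 (chr13:64370726-64370770, minus strand) and in Lgmn at -49 of the second start (chr12:102439111-102439166, minus strand), 636 bases from the first.
Ctsa: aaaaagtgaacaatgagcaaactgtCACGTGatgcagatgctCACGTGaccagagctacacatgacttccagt
Ctsd: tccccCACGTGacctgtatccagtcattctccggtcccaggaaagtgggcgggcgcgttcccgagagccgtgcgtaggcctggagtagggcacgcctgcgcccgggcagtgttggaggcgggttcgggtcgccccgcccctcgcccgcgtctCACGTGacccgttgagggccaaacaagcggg
Ctsl: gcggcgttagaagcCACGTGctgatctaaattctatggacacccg
Lgmn: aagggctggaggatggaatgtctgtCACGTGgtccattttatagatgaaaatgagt
Both cores of Ctsa and 1 of the 2 in Ctsd have the longer form. In the other lists of lysosomal genes the core was found in 6 of 21 genes of the lysosomal membrane and acidification, 4 of 10 sorting and transcription factor genes, 3 of 22 other hydrolases, 1 of 11 other cathepsins and 0 of 14 cathepsin inhibitors. These letters are a description of the windows and do not show that a factor was bound.

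The 10 genes together took 0.316% to 2.2% of all counts in a library. Per kilobase of the principal transcript, Ctsd was the most abundant member in every group, with a mean of 1560 CPM per kilobase in naive control and 2220 CPM per kilobase in MI control hearts. Ctss came second in each group, at 927 and 1600 CPM per kilobase in the same hearts, followed by Ctsb and Ctsl. In naive Vegfc-deficient hearts this order rested on M149: in M150 and M34, Ctsl was at 276.5 and 277 CPM per kilobase, above Ctss at 164 and 259 CPM per kilobase and Ctsb at 187 and 192 CPM per kilobase. Ctsk was the lowest in each group, at 29.4 CPM per kilobase in naive control and 106 CPM per kilobase in MI control hearts. Neighbours in this order often could not be separated: after MI in control hearts Ctsb and Ctsl stood at 709 and 707 CPM per kilobase and Ctsh and Lgmn at 308 and 305 CPM per kilobase, while Ctsc alone varied 3.41-fold from M006 to M38. The order of the lower members also depends on the transcript taken: over the union of annotated exons Ctsl fell to 115 CPM per kilobase in naive controls, below Lgmn at 139 CPM per kilobase, and Ctsc became the lowest there. The make-up also varied from library to library. Ctss gave 31.6% of the summed level per kilobase in M149 and 32.2% in MI control M38, but 8.99% in naive M150 and 12.2% in MI M35. Ctsd held between 27.5% and 42.4% in every library.

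**Figure D1:**
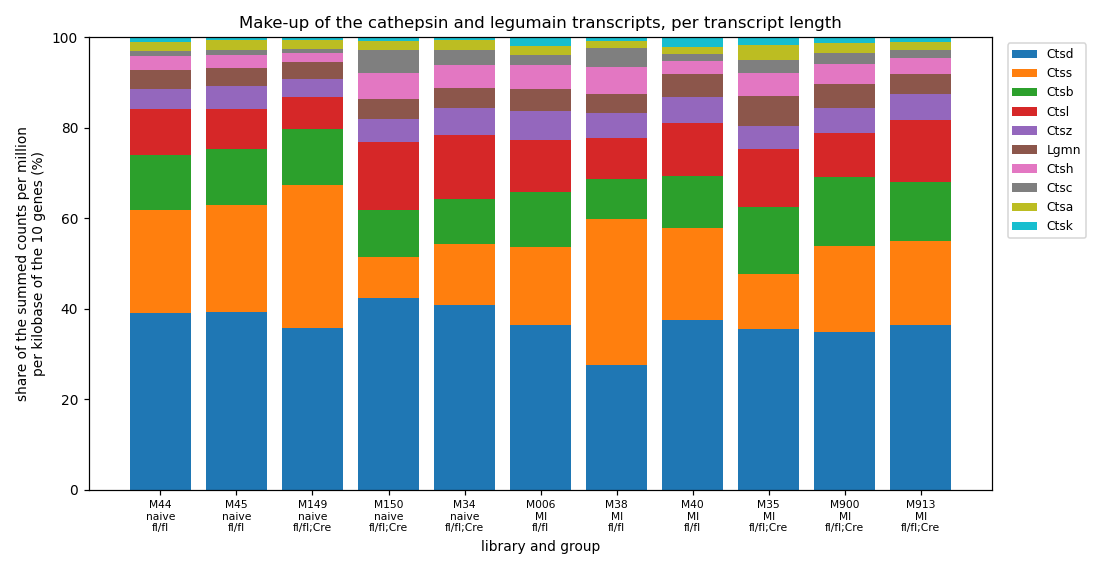
Share of each gene in the summed CPM per kilobase of the 10 genes (y axis, percent), for each of the 11 libraries (x axis, 1 bar each, grouped by state and genotype). Ctsd is the largest block in all but 1 library, and the Ctss block ranges from 8.99% in M150 to 32.2% in M38.

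The response of control hearts to MI was compared first, and 3 of the 10 genes rose. Ctsc (dipeptidyl peptidase 1, which activates the serine proteases of granulocytes and cytotoxic lymphocytes) rose 4.10-fold, Ctsk 3.59-fold and Ctsh (an aminopeptidase) 2.56-fold, and no member fell. The share of members that rose, 3 of 10, stands beside 26.3% of all genes tested that rose and 24.1% that fell in the same comparison. All 10 log2 fold changes were above 0, with a median of 0.91, where the median over all genes was 0.13 and 55.5% were above 0. In 6 genes (Ctsc, Ctsh, Ctsk, Ctsl, Ctsz and Lgmn) every MI control library lay above both naive control libraries, as was the case for 39.1% of all genes. P-values here rest on the spread between single hearts in groups of 2 and 3. That spread is estimated over all 11 libraries and 4 groups, not from the control hearts alone. In bulk tissue, more cells of a type and more RNA per cell cannot be told apart.

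Among the cysteine endopeptidases, Ctsk was at 53.0 and 36.1 CPM in naive control M44 and M45 and at 113.5, 105 and 261 CPM in MI control M006, M38 and M40. The groups did not overlap, and M40 was the highest of all 11 libraries (log2 fold change 1.84, standard error 0.56, adjusted p = 0.0189 by edgeR's quasi-likelihood test, Benjamini-Hochberg over all genes). Without M40 the log2 fold change of Ctsk was 1.30 (adjusted p = 0.0539 by the same edgeR test), so this call rested on that library. Ctsl, a broad endopeptidase, was at 745.9 and 746.5 CPM in the naive controls and at 963, 1290 and 1930 CPM after MI, without overlap but with a wide spread after MI (log2 fold change 0.90, standard error 0.45, edgeR adjusted p = 0.115). Ctsb, the second most counted member, was at 2177 and 2483 CPM in the naive controls and at 2423, 3116 and 4553 CPM after MI. Its groups overlapped, because M006 lay between the naive libraries (log2 fold change 0.53, 95% interval -1.0 to 2.06, edgeR adjusted p = 0.544). Ctss was at 1152 and 1361 CPM in the naive controls and at 1002, 3187 and 2301 CPM after MI. M006 was thus below both naive controls and M38 was the highest (log2 fold change 0.78, 95% interval -1.49 to 3.06, edgeR adjusted p = 0.544).

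Among the exopeptidases, Ctsc was at 91.2 and 118 CPM in the naive controls and at 224, 764 and 298 CPM in MI control M006, M38 and M40. Every MI library was above every naive one and M38 stood far above the others (log2 fold change 2.04, standard error 0.50, adjusted p = 0.00744 by edgeR's quasi-likelihood test). Without M38 the rise of Ctsc was 2.39-fold in place of 4.10-fold and still passed (edgeR adjusted p = 0.00897). Ctsh was at 190.4 and 199 CPM before and at 375, 720 and 400.3 CPM after MI, again highest in M38 (log2 fold change 1.36, standard error 0.36, edgeR adjusted p = 0.0105). Ctsz, a carboxypeptidase, was at 245 and 313 CPM and at 394, 593.5 and 693 CPM in the same libraries, and the groups did not overlap (log2 fold change 1.0, standard error 0.56, edgeR adjusted p = 0.158). Calls in this comparison also rested on having both naive controls: without M44 none of the 3 genes passed, and without M45 Ctsc alone did.

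Ctsd, which carries out bulk protein breakdown in lysosomes, was at 3100 and 3554 CPM in the naive controls and at 3278, 4261 and 6656 CPM after MI. M006 again lay among the naive values and M40 was highest (log2 fold change 0.51, 95% interval -0.85 to 1.86, edgeR adjusted p = 0.509). Ctsa, also known as protective protein for its role in stabilising beta-galactosidase and neuraminidase, was at 295 and 340.5 CPM before and at 329, 370 and 508 CPM after MI, which was the smallest change of the 10 (log2 fold change 0.34, 95% interval -0.78 to 1.47, edgeR adjusted p = 0.594). Lgmn was at 303 and 341 CPM before and at 407, 589 and 825 CPM after MI, without overlap (log2 fold change 0.92, standard error 0.55, edgeR adjusted p = 0.184). Leaving out M149, a library that is not in this comparison but shares its estimate of spread, left the fold change of Lgmn at 1.89 and brought its edgeR adjusted p to 0.0404.

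**Figure D2:**
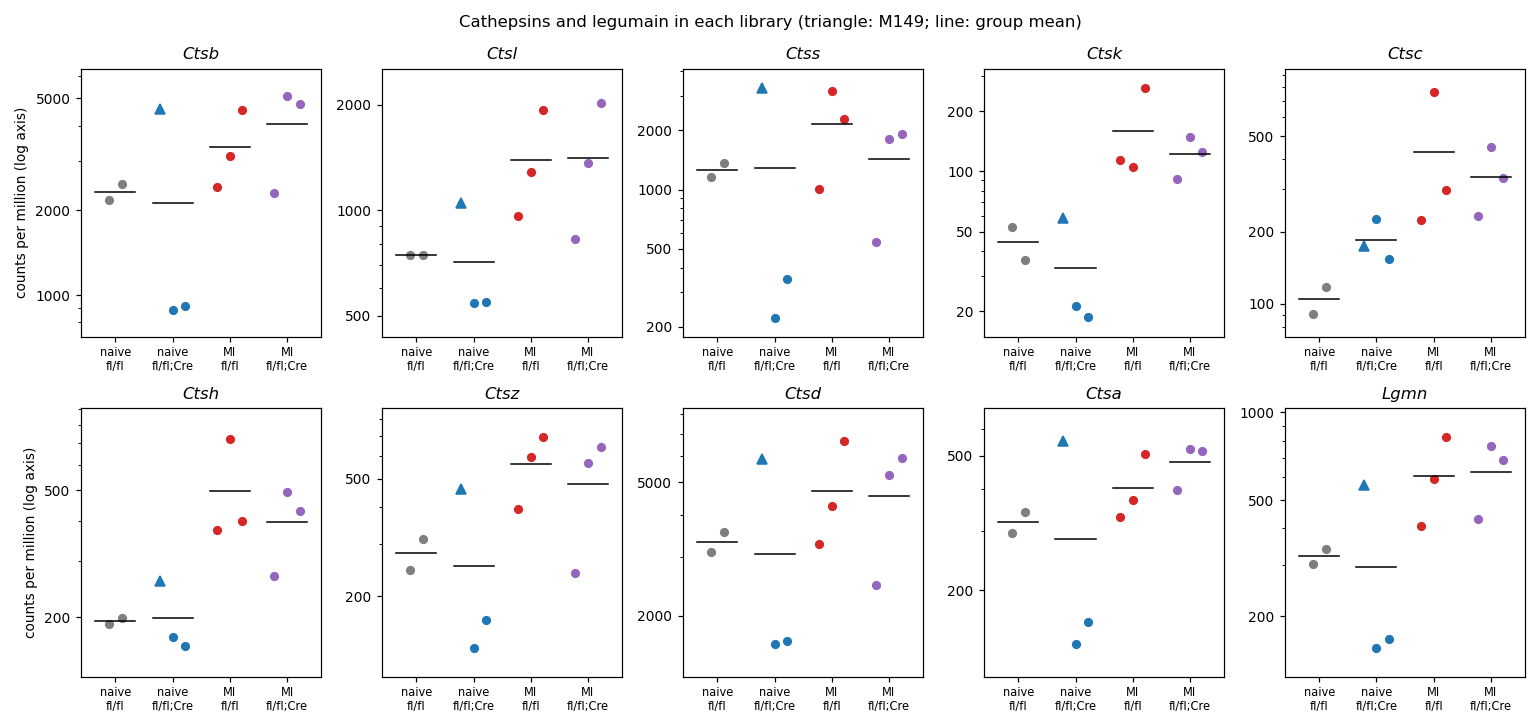
CPM (y axis, log scale, 1 panel per gene) in each library of the 4 groups (x axis), with 1 point per library, a triangle for M149 and a line at each group mean. In all genes but Ctsc the triangle lies above all other naive points and M150 and M34 lie below both naive controls, whereas in Ctsc the naive controls are the lowest.

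In Vegfc-deficient hearts the count of genes that rose depended on M149. With all libraries 2 of 10 rose, Ctsk by 3.72-fold and Ctsh by 2.00-fold, none fell, and 30.0% of all genes tested rose and 27.7% fell. Without M149, 9 of 10 rose, all but Ctsc, where 29.6% of all genes rose and 27.0% fell. The median log2 fold change of the 10 genes moved from 0.93 to 1.68, and that of all genes stayed at 0.10. All 3 MI libraries lay above all naive ones in 3 genes (Ctsc, Ctsh and Ctsk; 33.6% of all genes) with M149 and in all 10 without it (40.1% of all genes).

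Ctsb shows what M149 did. It was at 4596 CPM in M149, at 889 and 912 CPM in M150 and M34, and at 2306, 5110 and 4765 CPM in MI Vegfc-deficient M35, M900 and M913. M149 therefore lay above M35 and near the other infarcts, and M150 and M34 lay below all of them. The log2 fold change was 0.93 with it (standard error 0.61, edgeR adjusted p = 0.216) and 2.17 without it (standard error 0.43, edgeR adjusted p = 0.00247). Ctss had the widest split, with 3311 CPM in M149, 222 and 351.5 CPM in M150 and M34, and 542, 1816 and 1928 CPM after MI. M149 was above every MI Vegfc-deficient library in this gene, and the log2 fold change was 0.14 with it (edgeR adjusted p = 0.901) and 2.32 without it (edgeR adjusted p = 0.0120).

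The same held for the other members with a high M149. Ctsd was at 5868 CPM in M149, 1643 and 1678 CPM in M150 and M34, and 2477, 5259 and 5917 CPM after MI, with a fold of 1.49 with M149 and 2.74 without it. Ctsa was at 552 CPM in M149, 139 and 161 CPM in M150 and M34, and 396, 524 and 517.5 CPM after MI, with folds of 1.69 and 3.19. These acid hydrolases thus reached infarct levels in 1 naive heart. Ctsz was at 462 CPM in M149, 133 and 165 CPM in M150 and M34, and 239, 567 and 640 CPM after MI, with folds of 1.90 and 3.22. Lgmn was at 564 CPM in M149, 155 and 167 CPM in M150 and M34, and 432, 764 and 685 CPM after MI, with folds of 2.12 and 3.89. Ctsl was at 1048 CPM in M149, 545 and 546 CPM in M150 and M34, and 827, 1367 and 2031 CPM after MI, with folds of 1.97 and 2.58 (edgeR adjusted p = 0.0523 with M149 and 0.0176 without). In each of these 5 genes M35, the lowest Vegfc-deficient infarct, was below M149.

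In Ctsk, Ctsh and Ctsc every infarct lay above M149 as well. Ctsk was at 58.5 CPM in M149, 21.2 and 18.6 CPM in M150 and M34, and 91.8, 148.8 and 125 CPM after MI, so that all infarcts were above all naive hearts (edgeR adjusted p = 0.00705). Ctsh was at 260 CPM in M149, 173 and 163 CPM in M150 and M34, and 270, 494.5 and 429.5 CPM after MI (edgeR adjusted p = 0.0183). That call is narrow: without M150, M34, M900 or M913 in turn the edgeR adjusted p of Ctsh lay between 0.0665 and 0.0861. Ctsc was at 174 CPM in M149, 225 and 153 CPM in M150 and M34, and 232, 449 and 334 CPM after MI, a 1.84-fold difference (edgeR adjusted p = 0.0956). Ctsc was the only member whose value in M149 lay between those of M150 and M34.

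**Figure D3:**
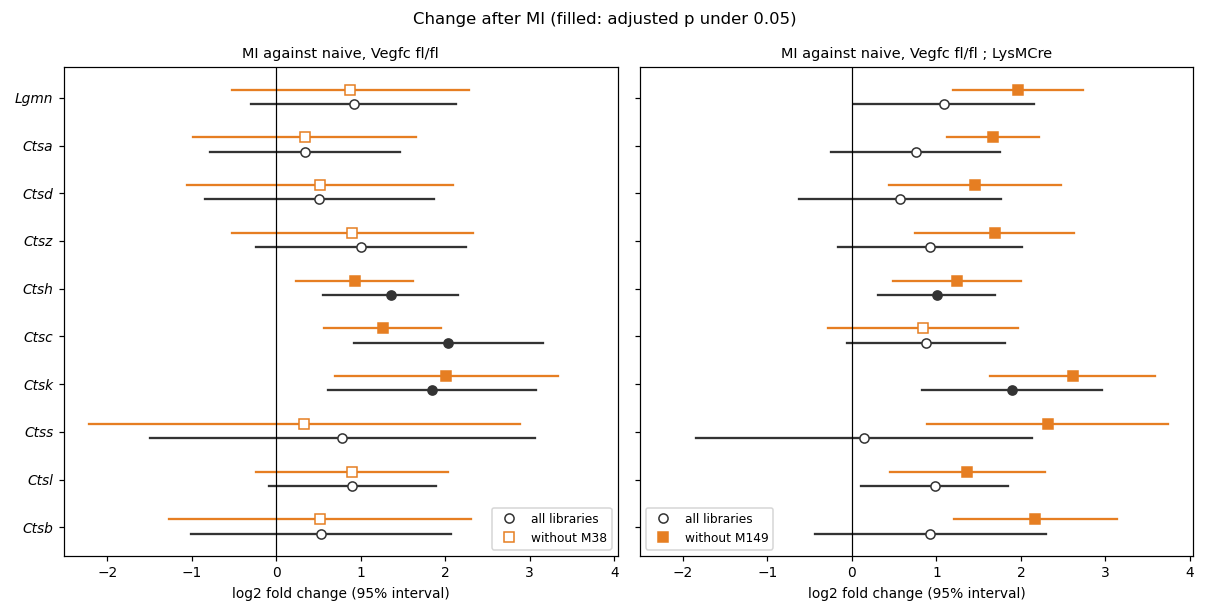
Log2 fold change after MI (x axis) with its 95% interval (bars) for each of the 10 genes (y axis) in Vegfc fl/fl hearts (left) and Vegfc fl/fl ; LysMCre hearts (right), with all libraries (black circles) and without 1 library (orange squares, M38 on the left and M149 on the right). Filled symbols have an edgeR adjusted p under 0.05, which are 3 genes on the left with and without M38, and 2 genes on the right with M149 and 9 without it.

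The 5 naive hearts were then compared by genotype. With all libraries 0 of 10 genes differed at an adjusted p under 0.05 (edgeR's quasi-likelihood test), 0 at an unadjusted p under 0.05, and 0 by the DESeq2 Wald test and by limma-voom. Of all genes, edgeR called 0.0%, DESeq2 0.0947% and limma-voom 0.0406%. The log2 fold changes ran from -0.44 in Ctsk to 0.82 in Ctsc, with intervals as wide as -2.18 to 2.27 in Ctss. Ctsc was the only member without overlap, with all 3 Vegfc-deficient libraries above both controls, as 22.4% of all genes were separated in one direction or the other.

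Within the naive Vegfc-deficient group, Ctss varied 14.9-fold, Ctsb 5.17-fold, Ctsa 3.98-fold, Lgmn 3.64-fold, Ctsd 3.57-fold, Ctsz 3.47-fold, Ctsk 3.14-fold and Ctsl 1.92-fold from its lowest to its highest library, and these extremes were also those of all naive hearts. Ctsh varied 1.59-fold. In all 9 of these genes M149 was highest, and M150 and M34 were both below M44 and M45, an order found in 8.25% of all genes. Whatever the level in M149, M150 and M34 were below both controls in 21.0% of all genes. Without M149 the median log2 fold change of the 10 genes between naive genotypes was -1.0, against 0.03 over all genes, and 5 genes (Ctsa, Ctsb, Ctsk, Ctss and Lgmn) had an unadjusted p under 0.05. No member passed the edgeR test with Benjamini-Hochberg adjustment then either, with adjusted p-values from 0.236 for Ctsa upward, and 0.0879% of all genes were lower at an adjusted p under 0.05. The log2 fold change of Ctss was -2.13 (standard error 0.66, edgeR adjusted p = 0.471) and that of Ctsb -1.37 (standard error 0.44, edgeR adjusted p = 0.498).

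Genes outside the 10 moved with these values across the naive hearts, and the following were picked after their values were seen. Lyz2, as above, was high in M149 and the controls and low in M150 and M34. Chil3 (a chitinase-like protein of macrophages) was at 580 and 601 CPM in M44 and M45, 1679 CPM in M149 and 26.0 and 54.2 CPM in M150 and M34. Atp6v0d2 (a subunit of the lysosomal proton pump found in macrophages and osteoclasts) was at 212.5, 205, 571, 6.90 and 23.4 CPM in the same order, and Itgax at 91.1, 102, 235, 5.57 and 6.92 CPM. The lysosomal genes Psap and Lipa followed, at 5491 and 567 CPM in M149 and 649 and 75.3 CPM in M150. The general macrophage markers divided. Of 12, 6 had their highest naive level in M149 and were lower in M150 and M34 than in both controls (Adgre1, Cd68, Csf1r, Itgam, Mertk and Mrc1), an order found in 8.25% of all genes tested. Cd68 was at 205 and 293 CPM in M44 and M45, 527 CPM in M149 and 75.8 and 88.9 CPM in M150 and M34, whereas C1qa was between 403 and 466 CPM in all 5 naive hearts. The summed level of 12 macrophage markers was 2072 and 2179 CPM in the controls, 2713 CPM in M149 and 1874 and 1905 CPM in M150 and M34. Of 10 genes of lung tissue and alveolar macrophages, 4 had the same order (Chil3, Marco, Siglecf and Scgb1a1), and the sum of the list was 587 and 610.0 CPM in the controls, 1700 CPM in M149 and 27.8 and 56.6 CPM in M150 and M34. Chil3 gave nearly all of that sum. Marco, a scavenger receptor, was at 3.48 and 5.62 CPM in M44 and M45, 14.02 CPM in M149 and 0.242 and 0.488 CPM in M150 and M34. Siglecf was at most 2.65 CPM and Scgb1a1 at most 2.16 CPM, both highest in M149, and the surfactant genes Sftpa1, Sftpb, Sftpc and Sftpd were at 0 in all naive hearts. The part of any cell type in the naive differences was not tested.

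**Figure D4:**
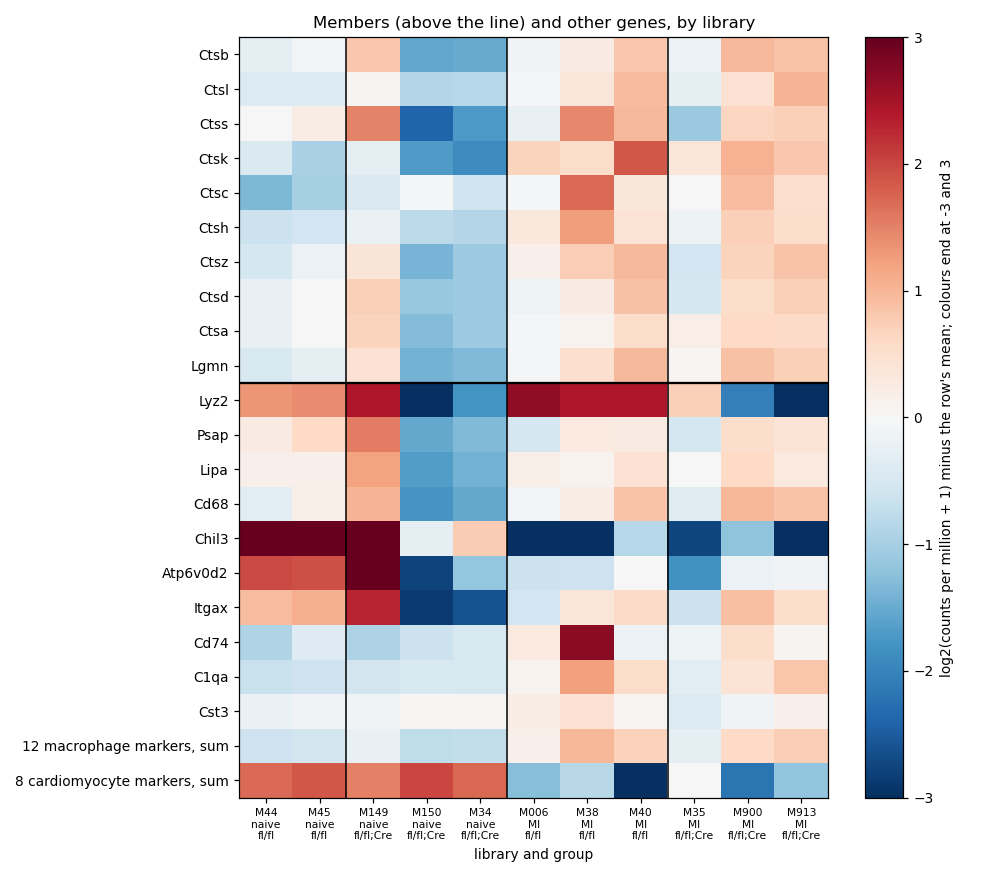
Log2 of CPM plus 1, minus the mean of the row (colour), for the 10 genes (above the line) and for other genes and marker sums (below it), in the 11 libraries (x axis). Among naive hearts Lyz2, Psap, Lipa, Cd68, Chil3, Atp6v0d2 and Itgax are high in M149 and low in M150 and M34 like most members, while C1qa and Cst3 are nearly even, and among infarcts M38 stands out in Ctsc, Ctsh, Ctss and Cd74.

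The comparison that the study was designed for, Vegfc-deficient against control hearts after MI, called no member. Of 10 genes 0 passed at an adjusted p under 0.05 (edgeR's quasi-likelihood test), 0 had an unadjusted p under 0.05, and the DESeq2 Wald test and limma-voom also called 0 of the 10. Of all genes, edgeR and limma-voom called 0.0% and DESeq2 0.42%. In 0 of 10 genes did the 3 libraries of each group separate, as they did in 12.1% of all genes. The log2 fold changes ran from -0.60 for Ctss to 0.27 for Ctsb, 4 above 0 and 6 below, with a median of -0.14. Intervals set the limits of this result. For Ctsh, the most precise, the 95% interval was -1.01 to 0.36 on the log2 scale, and for Ctss, the least precise, it was -2.59 to 1.39, so that these data do not show equal expression.

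The values after MI varied widely between single hearts of a genotype. M35 was the lowest Vegfc-deficient infarct in all 10 genes, and the lowest of all 6 infarcts in 7 of them. It also had the highest summed cardiomyocyte markers of the infarcts, at 25420 CPM against 2557 to 14230 CPM in the other 5, and the lowest summed macrophage markers, at 2604 CPM against 3527 to 6318 CPM. Of the infarcts, M38 was highest in Ctsc, Ctsh and Ctss. The same heart held 12050 CPM summed over 11 dendritic cell and MHC class II markers, where the other infarcts held 1815 to 2685 CPM, and Cd74, the invariant chain that cathepsin S trims, was at 4214 CPM there. M40 was highest in Ctsk, Ctsd, Ctsz and Lgmn and had the lowest cardiomyocyte sum. Without M38 the log2 fold change of Ctsc between genotypes turned from -0.34 to 0.40 and that of Ctsh from -0.33 to 0.06, and without M35 that of Ctsd turned from -0.06 to 0.24, none of them called. The part of tissue make-up in these values was not tested.

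**Figure D5:**
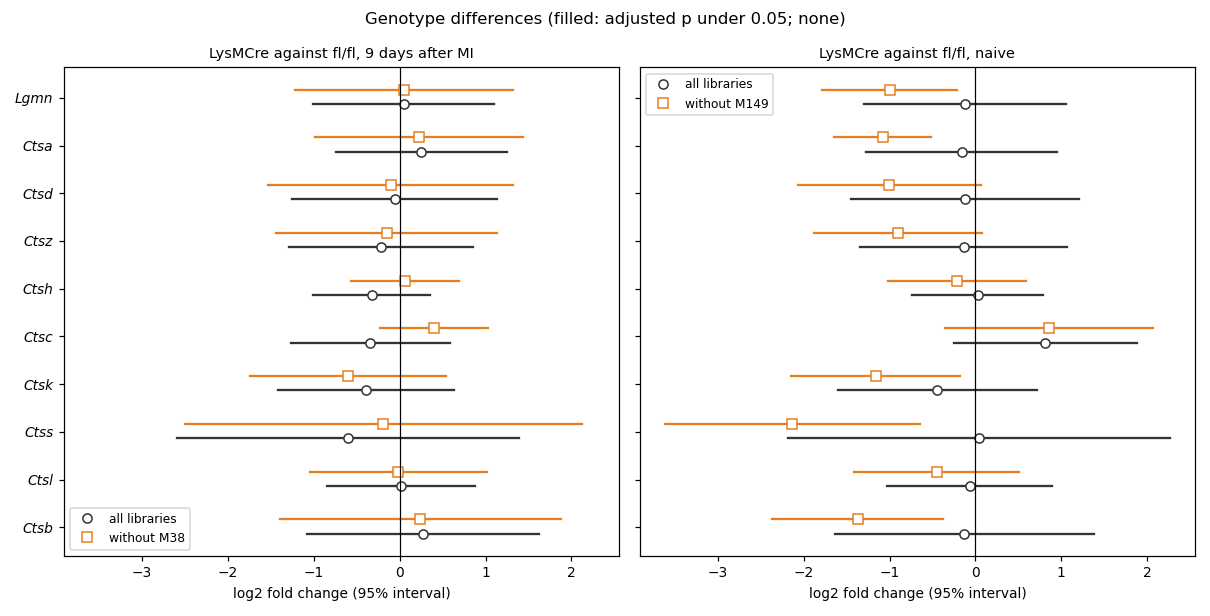
Log2 fold change of Vegfc fl/fl ; LysMCre against Vegfc fl/fl (x axis) with its 95% interval (bars) for each gene (y axis) after MI (left) and in naive hearts (right), with all libraries (black circles) and without 1 library (orange squares, M38 on the left and M149 on the right). No symbol is filled, as 0 of 10 genes passed in either state. The naive values lie below 0 in 7 of 10 genes with all libraries, and in all genes but Ctsc without M149.

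Whether MI changed the genes differently in the genotypes was tested as an interaction. Again 0 of 10 genes passed after adjustment (edgeR, adjusted p under 0.05), 0 had an unadjusted p under 0.05, and DESeq2 and limma-voom called 0. Of all genes, edgeR and limma-voom called 0.0% and DESeq2 0.392%. Ctsc had the largest difference, a log2 value of -1.16 (95% interval -2.56 to 0.25, edgeR adjusted p = 0.638), with naive levels of 91.2 and 118 CPM in controls and 153 to 225 CPM in Vegfc-deficient hearts. Without M149 the differences of Ctsb, Ctsa and Lgmn were 1.64, 1.33 and 1.05, each with an unadjusted p under 0.05, and the lowest edgeR adjusted p of the 10 genes was 0.240. The MI comparisons of the genotypes share no library with each other, but each shares its libraries with the genotype comparisons.

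Marker genes of several cell types also changed after MI, in both directions. In control hearts 7 of 12 macrophage markers rose after MI and none fell, with a sum of 2072 and 2179 CPM before and 3527 to 6318 CPM after. In Vegfc-deficient hearts 8 of 12 rose, with a sum of 1874 to 2713 CPM before and 2604 to 5340 CPM after. Fibroblast markers rose in 6 of 9 and 7 of 9 genes, with sums of at most 7630 CPM in naive hearts and at least 30720 CPM in infarcts, and all 8 cardiomyocyte markers fell in both genotypes. Of 6 neutrophil markers 1 rose in Vegfc-deficient hearts, and their sum lay between 25.4 and 352 CPM in all 11 libraries. Dendritic cell and MHC class II markers rose in 6 of 11 genes in control hearts and in 3 of 11 in Vegfc-deficient hearts, and lymphocyte markers in 3 of 7 and 0 of 7. Endothelial markers fell in 2 of 7 genes in both genotypes, and 1 rose in Vegfc-deficient hearts. Without M149, 8 and 10 of 12 macrophage markers rose in control and Vegfc-deficient hearts, 6 and 5 of 9 fibroblast markers, 1 and 1 of 6 neutrophil markers and 0 of 7 endothelial markers in either. The members are expressed by several of these cell types, and what the change of each type gave to the members was not tested.

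Of the 13 other cathepsin genes, 5 passed the filter on low counts (Ctse, Ctsf, Ctsg, Ctso and Ctsw), and the remainder, the placental cathepsins, were at or near 0. In control hearts 3 of these 5 rose after MI and in Vegfc-deficient hearts 2, Ctsw and Ctsf (1 without M149). Ctse, an aspartic protease of antigen-presenting cells, was at 1.87 and 1.63 CPM in naive controls and at 18.5, 24.3 and 26.7 CPM in MI controls. In MI Vegfc-deficient M35, M900 and M913 it was at 3.59, 6.50 and 0.994 CPM, below all MI controls. The log2 fold change of Ctse between genotypes after MI was -2.65 (95% interval -3.84 to -1.45, edgeR adjusted p = 0.584), which did not pass over all genes. Ctsw, a protease of cytotoxic lymphocytes, was at 4.58, 20.9 and 4.0 CPM in MI controls and at 3.12, 5.41 and 4.39 CPM in MI Vegfc-deficient hearts, with M38 alone high. Ctsg, a serine protease of neutrophils and mast cells, was at 0.754, 1.66 and 20.5 CPM in MI controls and at 0, 0.0419 and 0.166 CPM in MI Vegfc-deficient hearts. M40 alone gave the high value of Ctsg, and several libraries held fewer than the floor of 3 counts, which stands for 0.101 to 0.363 CPM and covers counting error only.

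Of the 16 cathepsin inhibitor genes, 10 were tested, of which 3 rose and 1 fell after MI in control hearts and 0 rose and 3 fell in Vegfc-deficient hearts (1 and 3 without M149). The bulk of the inhibitor transcripts was Cst3, the secreted cystatin C, at 2305 to 2734 CPM in naive hearts and 2001 to 3566 CPM in infarcts. Serpina3g, a serpin of leukocytes, was at 3.92 and 2.99 CPM in naive controls and at 10.3, 158 and 18.5 CPM in MI controls, with M38 highest (log2 fold change 4.17, edgeR adjusted p = 0.0156, and 2.0 and 0.0267 without M38). Cst7, the cystatin of immune cells that restrains cathepsin C, was at 0.446 and 0.362 CPM and at 1.1, 10.2 and 3.01 CPM in the same libraries, also highest in M38 (log2 fold change 3.55, edgeR adjusted p = 0.00972, and 2.29 and 0.0157 without M38). M38 was thus the top library of Ctsc and of its inhibitor alike. Cst9 had 0 counts in both naive controls and 1.42 to 1.62 CPM in MI controls, at least 11.4-fold higher when the floor of 3 counts over both controls is used, and was at 0.484 to 0.883 CPM in the naive Vegfc-deficient hearts.

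Of 28 other lysosomal hydrolases and their cofactors, 7 rose and 1 fell after MI in control hearts and 11 rose and 1 fell in Vegfc-deficient hearts, with median log2 fold changes of 0.63 and 0.71. Of all genes tested, 26.3% rose and 24.1% fell in control hearts (median 0.13), and 30.0% rose and 27.7% fell in Vegfc-deficient hearts (median 0.10). In Vegfc-deficient hearts without M149, 29.6% rose and 27.0% fell. These shares apply to the counts of every gene list described here, except the counts in control hearts without M149. For those the share of all genes is not given here. Without M149, 15 of 28 rose in control hearts and 27 of 28 in Vegfc-deficient hearts, the latter with a median of 1.38, beside 1.68 for the 10 cathepsin and legumain genes. In control hearts the median of the hydrolases was then 0.62, and that of all genes 0.13. Npc2, the cholesterol carrier of the lysosome, was at 365 and 399 CPM before and 624, 951 and 833 CPM after MI in control hearts. Smpd1, acid sphingomyelinase, was the exception that fell in both genotypes, from 232 and 248 CPM to 66.0, 91.3 and 62.3 CPM in control hearts (edgeR adjusted p = 0.000447).

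The lysosomal membrane and acidification genes divided by direction. Of 26 genes 1 rose and 3 fell in control hearts and 4 rose and 4 fell in Vegfc-deficient hearts. Without M149, 4 rose and 7 fell in control hearts and 13 rose and 3 fell in Vegfc-deficient hearts. Lamp2, a major lysosomal membrane protein, rose (log2 fold change 0.79, edgeR adjusted p = 0.0253) and the proton pump subunits Atp6v1e1 and Atp6v1d fell (log2 fold changes -1.19 and -1.08, edgeR adjusted p = 0.000269 and 0.00222) in control hearts. Atp6v1e1 was at 330 and 385 CPM in the naive controls and at 147 to 165 CPM in MI controls. Of 12 sorting and transcription factor genes 2 rose and 1 fell in control hearts and 5 rose and 1 fell in Vegfc-deficient hearts. Without M149, 3 rose and 1 fell in control hearts and 6 rose and 1 fell in Vegfc-deficient hearts. Among the factors that read the CACGTG element, Tfe3 rose in control hearts from 32.0 and 30.1 CPM to 44.6, 47.9 and 49.6 CPM (log2 fold change 0.61, edgeR adjusted p = 0.00797). Mitf fell from 43.5 and 51.6 CPM to 22.0, 23.3 and 23.2 CPM (log2 fold change -1.06, edgeR adjusted p = 0.000781). Tfeb was at 22.3 to 27.7 CPM in naive hearts and 19.9 to 31.0 CPM in infarcts. Gnptab, which makes the mannose 6-phosphate tag that sends cathepsins to the lysosome, rose in control hearts (log2 fold change 0.72, edgeR adjusted p = 0.00986). Between genotypes 0 of the 81 tested genes of these 5 lists passed the edgeR test, the DESeq2 Wald test or limma-voom with all libraries, and 6 after MI and 1 in naive hearts had an unadjusted edgeR p under 0.05. Without M149, Lipa and Sort1 passed and were lower in naive Vegfc-deficient hearts, as were 0.0879% of all genes. Then 34 of the 81 genes in naive hearts and 10 after MI had an unadjusted edgeR p under 0.05. In the interaction 7 had such a p with all libraries and 32 without M149, and none passed. With all libraries 1173 of all 14779 genes after MI and 499 in naive hearts had such a p, and the counts without M149 are not given here.

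Over the 6 infarcts the mean centred log2 CPM of the 10 genes was -0.44, 0.24 and 0.39 in MI control M006, M38 and M40 and -0.71, 0.27 and 0.25 in MI Vegfc-deficient M35, M900 and M913, so that M006 and M35 were low in both genotypes. The 5 genes outside the 10 with the highest Pearson correlation to this mean, among the genes tested and over these 6 libraries, were Gm45902 (r = 0.997), Arl4c (r = 0.996), Capg, Tes and Gla (each r = 0.995). Gla, alpha-galactosidase A of the lysosome, was at 29.2, 54.6 and 70.2 CPM in MI controls and at 18.9, 57.2 and 56.0 CPM in MI Vegfc-deficient hearts. Capg, an actin-capping protein of macrophages, was at 159, 301 and 320 CPM and at 122, 282 and 306 CPM in the same order. The members themselves had r from 0.629 for Ctsc to 0.971 for Ctsz, and each is part of the mean. These values are a description over 6 libraries that share scaling and tissue make-up.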

How the data were processed

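Stranded mRNA libraries were made from left ventricle and sequenced by the authors. Per the labels' processing notes, the authors used cutadapt 1.13, STAR (version not given), HTSeq 0.6.1p1 and the mm10 genome, and deposited raw counts per Ensembl gene for each library. The strand setting of the counting is not given in the sources used here. On the opposite strand Ctsa overlaps Pltp and Neurl2, Ctsb overlaps Fdft1 and Ctsz overlaps Nelfcd. Depending on the strand setting, reads there could be left uncounted. Of 25006 gene IDs, 24991 were named from GENCODE M21 (GRCm38).

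Counts were scaled by TMM to CPM and tested with edgeR 4.0.16 (R 4.3.3), in 1 quasi-likelihood fit of 4 group means over 11 libraries. Genes passed filterByExpr (14779 genes), with Benjamini-Hochberg adjustment over all of them and a threshold of 0.05. A gene "rose" or "fell" only past that threshold. Intervals are 95% intervals of the log2 fold change. Levels per kilobase use the APPRIS principal transcript. Alternatives were DESeq2 1.42.0, limma-voom 3.58.1, other filters and scalings, a minimum log2 fold change of 1, and each library left out. The scripts were tested on simulated data. The 10 genes, the lists and the alternatives were chosen with earlier results of these data known. All 10 genes were described, and from each other lysosomal list the 3 called genes with the largest change after MI in control hearts, plus any called between genotypes. Libraries from one mouse each were the replicates, and no library was left out of the main fit of groups. Proteins were not used here.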

Additional observations from a re-analysis of the deposited data

How the results depend on the processing

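The 0 of 10 genes called between genotypes after MI, in naive hearts and in the interaction stayed 0 under the other tools, filters, scalings and fits, with a minimum log2 fold change of 1 and with each library left out. In control hearts the 3 genes called after MI stayed at 3 under the other tools, filters, scalings and the minimum fold change, became 4 in a fit of only the compared groups (with Ctsz), and ranged from 0 (without M44) to 4 when each library was left out. In Vegfc-deficient hearts the 2 genes called stayed at 2 with the minimum fold change and became 3 without a filter on low counts (with Ctsl), 3 in a fit of only the compared groups (with Ctsc), 4 by the DESeq2 Wald test and 9 by limma-voom with sample quality weights, and ranged from 1 to 9 when each library was left out, with 9 without M149, 4 without M35 and 1 without M150, M34, M900 or M913. After MI in Vegfc-deficient hearts, DESeq2 called 8721 of all 14779 genes and limma-voom 9428, where edgeR called 4432 higher and 4088 lower. In control hearts DESeq2 called 7731 and limma-voom 8466 in either direction, where edgeR called 3882 higher and 3568 lower. With limma-voom the log2 fold changes turned to 0.20 in Ctsd, 0.036 in Ctsz and 0.068 in Ctsc between genotypes after MI, to -0.095 in Ctsh and -1.44 in Ctss in naive hearts, and to 0.60 in Ctsz and 1.30 in Ctss in the interaction.

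Leaving out each library in turn changed signs as follows. Ctss after MI in Vegfc-deficient hearts ranged from -0.36 to 2.32. Between genotypes after MI, Ctsd ranged from -0.30 to 0.27, Ctsz from -0.49 to 0.11, Lgmn from -0.18 to 0.33, Ctsl from -0.35 to 0.32, Ctsk from -0.60 to 0.16, Ctsc from -0.67 to 0.40 and Ctsh from -0.51 to 0.061. In naive hearts, Ctsd ranged from -1.0 to 0.18, Ctsz from -0.90 to 0.17, Ctsa from -1.08 to 0.17, Lgmn from -1.0 to 0.18, Ctsl from -0.45 to 0.10, Ctsb from -1.37 to 0.24, Ctsh from -0.21 to 0.15 and Ctss from -2.13 to 0.54. In the interaction, Ctsd ranged from -0.24 to 0.95, Ctsz from -0.38 to 0.69, Lgmn from -0.14 to 1.05, Ctsl from -0.29 to 0.47, Ctsk from -0.25 to 0.77, Ctsh from -0.53 to 0.036 and Ctss from -1.14 to 1.53. None of these values was called in the comparisons between genotypes.

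With 2 naive controls, leaving out 1 leaves a single heart that is assumed to vary like the others. Depth did not limit the members, whose lowest level was far above 3 counts. The number of hearts, their spread and the single library M149 limited them. No paired analysis was possible because the groups share no replicate numbers. The cause of these changes was not tested.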
